A study of Rattus norvegicus with 49 samples.

Results

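Livers of rats that had received 30% less food for 14 days were compared with livers of rats fed ad libitum, and both groups were fasted overnight before the tissue was taken. The comparison was defined by the labels alone: 5 rats of group 4 (70% Food) and 5 rats of group 2 (Control Ad Libitum) at day 14, which are 10 of the 49 rats of the series, with 1 array for each rat. All were male Sprague-Dawley rats aged 8 to 10 weeks at the start, and all received powdered feed. The other groups of day 14 were group 1 (ad libitum, no fasting, 4 rats), group 3 (15% less food, fasted, 5 rats) and group 5 (60% less food, fasted, 5 rats), and groups 2 and 4 were also sampled at day 4 with 5 rats each. Group 1 was not fasted by its labels, and the study's methods also leave it out of the overnight fast. The series description has every animal fasted, and the labels and methods were followed. The rats of group 4 are called 30% restricted rats below and those of group 2 fasted controls. The hour at which the livers were taken and the hour at which restricted rats were fed are not given in the sources used here, so time since the last meal and food restriction cannot be told apart.

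The liver stores and releases fuel. After a meal it turns glucose into glycogen and, through acetyl-CoA, into fatty acids and cholesterol, under control of insulin and of the SREBP transcription factors. During a fast it oxidizes fatty acids, makes ketone bodies and releases glucose, under control of glucagon, glucocorticoids and PPAR alpha. Many of these genes also follow the circadian clock, in which *Bmal1* and *Clock* or *Npas2* activate the *Per*, *Cry* and *Nr1d* repressors and the output factors *Dbp*, *Tef* and *Hlf*, and in liver the phase of this clock follows the time of feeding.

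Values are RMA intensities of Affymetrix rat genome arrays, turned into log2, for 14217 genes. The number of arrays limits the precision, since an array gives no counts. Array medians lay between log2 6.34 and 6.43, no 2 arrays were identical, and the median correlation within groups was 0.990 to 0.995. In the text below, a dim gene is one under log2 intensity 4.95, the 25th percentile of all values. Hepatocyte markers were high, as the liver label requires: *Alb* (albumin) was at a mean log2 intensity of 14.97 in the restricted rats and 14.98 in the controls, and the summed intensity of the 11 hepatocyte markers ranged from 187920 to 195570 in the restricted rats and from 188720 to 198840 in the fasted controls. Replicates are different animals.

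Of 14217 genes, 927 were higher (6.52%) and 887 were lower (6.24%) in the 30% restricted rats than in the fasted controls by limma with a Benjamini-Hochberg adjusted p under 0.1. The median log2 difference over all genes was 0.00348. Differences were mostly small: 88 of the genes called higher and 68 of those called lower differed by at least 1 on the log2 scale. Without any overlap between the 5 restricted and the 5 control rats, 600 genes were higher (4.22%) and 634 were lower (4.46%). These are amounts in whole liver tissue, in which fewer cells of a type and less RNA per cell cannot be told apart.

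**Figure D1:**
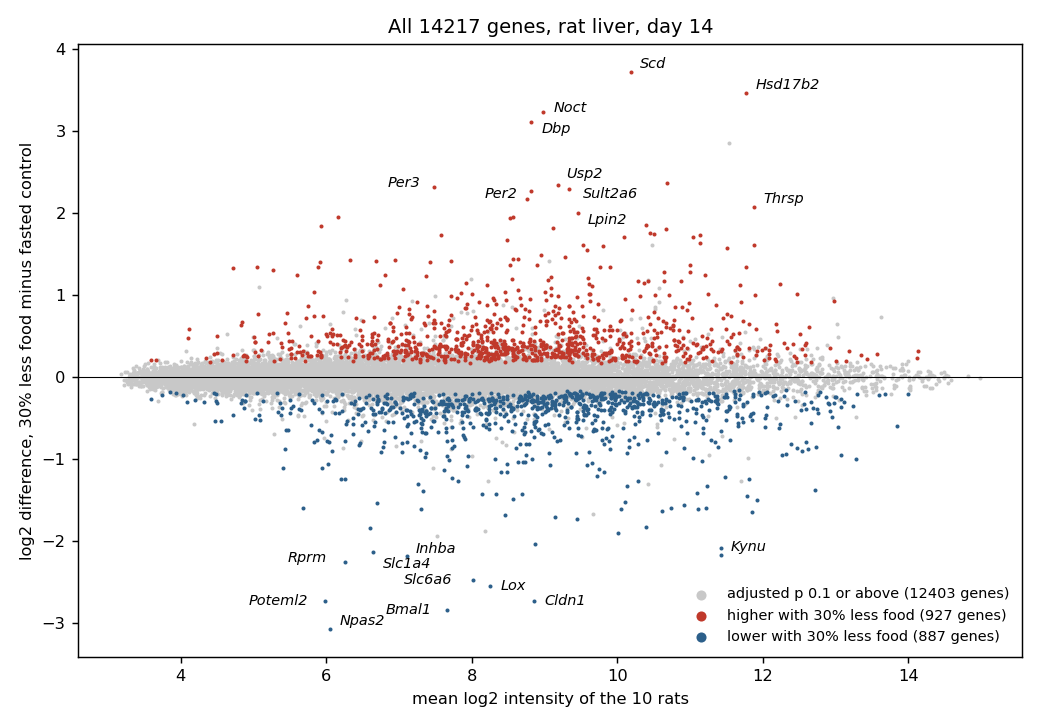
Log2 difference between the 30% restricted rats and the fasted controls (vertical axis) against the mean log2 intensity of the 10 rats (horizontal axis), with 1 point for each of 14217 genes. Red points are the 927 genes called higher and blue points the 887 called lower at an adjusted p under 0.1; the 10 largest rises and 10 largest falls without overlap of the rats are labelled, from *Scd* at 3.72 to *Npas2* at -3.07.

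Among genes whose rats did not overlap, the largest rise was that of *Scd*, stearoyl-CoA desaturase, which makes monounsaturated fatty acids. Its log2 intensities were 11.50, 11.71, 12.29, 12.40 and 12.38 in the 5 restricted rats and 7.88, 8.20, 7.38, 9.01 and 9.17 in the 5 fasted controls. Every restricted rat lay above every control by more than 2 on this scale. The log2 difference was 3.72 ± 0.32 (SE, n = 5 and 5, limma adjusted p = 6.05e-05), a 13.2-fold higher mean. Next was *Hsd17b2*, a hydroxysteroid dehydrogenase that oxidizes estradiol and testosterone. The restricted rats had log2 intensities of 13.59, 13.35, 12.82, 13.84 and 13.93, against 9.84, 11.22, 9.06, 10.47 and 9.59 in the controls. The groups stood far apart, with a log2 difference of 3.47 ± 0.35 (SE, adjusted p = 0.000142). The other genes among the 10 largest such rises were 5 clock genes (*Noct*, *Dbp*, *Usp2*, *Per3* and *Per2*), the lipogenic genes *Thrsp* and *Lpin2*, and *Sult2a6*, a hydroxysteroid sulfotransferase, at a log2 difference of 2.30 ± 0.36 (adjusted p = 0.00253).

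The 10 largest falls without overlap were those of the clock activators *Npas2* and *Bmal1*, the tight junction protein *Cldn1*, the taurine transporter *Slc6a6*, the neutral amino acid transporter *Slc1a4*, the activin subunit *Inhba*, the kynureninase *Kynu*, the collagen cross-linking enzyme *Lox*, and the genes *Rprm* and *Poteml2*. *Slc6a6* had the smallest adjusted p of these. It was at log2 intensities of 6.74, 6.75, 6.46, 6.98 and 6.95 in the restricted rats and of 9.57, 9.24, 9.33, 9.04 and 9.10 in the controls. The spread within each group was small beside the gap between them, and the log2 difference was -2.48 ± 0.12 (SE, adjusted p = 1.15e-06). *Poteml2* had log2 intensities of 4.17 to 4.86 in the restricted rats, all under the dim level, and of 6.49 to 8.11 in the controls, a log2 difference of -2.39 with the dim level in place of the restricted mean. *Rprm* was at 4.75 to 5.52 against 6.69 to 8.01 on the same log2 scale, near the dim level in the restricted rats and well above it in the controls.

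Clock genes moved in opposite directions by their role. Of 15 measured genes of the clock itself, 8 were higher and 3 lower, and of 8 output genes 6 were higher and none lower, against 6.52% and 6.24% of all genes. The activators fell. *Bmal1*, which binds DNA together with *Clock* or *Npas2*, had log2 intensities of 5.98, 6.09, 7.19, 5.93 and 5.98 in the restricted rats and 9.29, 8.81, 9.72, 8.33 and 9.23 in the controls. Restricted rat 3 stood above the other 4 but still under every control, and the log2 difference was -2.84 ± 0.28 (SE, adjusted p = 0.000119). *Npas2* was at 4.09, 4.32, 5.04, 4.46 and 4.70 in the restricted rats and at 7.68, 7.26, 8.40, 7.22 and 7.41 in the controls, in log2 intensity. Its mean in the restricted rats was under the dim level, so the log2 difference of -3.07 ± 0.23 (adjusted p = 3.06e-05) depends on intensities near the floor of the array, and set at the dim level it was -2.64. *Clock*, the third activator, differed by -1.04 ± 0.11 on the log2 scale (adjusted p = 0.000155), again without overlap.

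The repressors rose. *Per2* had log2 intensities of 10.38, 9.52, 9.74, 10.42 and 9.70 in the restricted rats and 7.41, 7.11, 8.01, 8.02 and 7.87 in the controls. Each restricted rat exceeded the highest control, and the log2 difference was 2.27 ± 0.22 (adjusted p = 0.000114). *Per3* differed by 2.32 ± 0.18 and *Per1* by 1.37 ± 0.25 on the log2 scale (adjusted p = 3.31e-05 and 0.00594). With the mean of all probe sets of a gene the log2 differences were smaller, 1.31 for *Per2*, 1.52 for *Per3* and 0.32 for *Csnk1d*, all still called. The E-box competitors *Bhlhe40* and *Bhlhe41* (DEC1 and DEC2) differed by 1.67 ± 0.13 and 1.84 ± 0.31 (log2, adjusted p = 4.1e-05 and 0.00352), and *Bhlhe41* was at most 5.21 in every control. *Nr1d2*, which represses *Bmal1*, differed by 1.34 ± 0.22 (log2, adjusted p = 0.0037), and *Csnk1d*, a kinase that marks PER proteins for degradation, by 0.49 ± 0.10 (adjusted p = 0.0109). *Cry2* passed the threshold narrowly at a log2 difference of 0.43 ± 0.14 (adjusted p = 0.0954). It did not pass in 8 of the 10 fits that left out 1 rat (all but those without restricted rat 2 or control 3), where the adjusted p reached 0.206. It was also not called with the mean of its probe sets or by the study's LNN-MV model, rebuilt here.

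Not every clock gene separated the groups. *Nr1d1* was at log2 intensities of 8.41, 8.15, 7.67, 8.82 and 9.05 in the restricted rats and 8.47, 8.96, 5.09, 8.77 and 6.78 in the controls. The controls alone spanned more than the difference of 0.81 ± 0.64 (log2, adjusted p = 0.541). *Cry1* differed by 0.55 ± 0.30 (adjusted p = 0.342) and *Rora*, an activator of *Bmal1*, by -0.14 ± 0.11 (adjusted p = 0.574), both in log2 and with overlapping rats.

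The output genes of the clock rose with the repressors. *Dbp*, a PAR bZIP factor that binds D-boxes, was at log2 intensities of 10.59, 10.00, 9.45, 10.86 and 10.94 in the restricted rats and 7.11, 7.40, 6.85, 7.81 and 7.13 in the controls. The gap between the lowest restricted rat and the highest control was wider than the spread of the controls, and the log2 difference was 3.11 ± 0.27 (adjusted p = 6.59e-05). Its relatives *Tef* and *Hlf* differed by 1.19 ± 0.12 and 0.60 ± 0.10 on the log2 scale (adjusted p = 0.000162 and 0.00316). *Noct*, a circadian phosphatase, had log2 intensities of 11.54, 10.76, 9.78, 10.01 and 10.87 in the restricted rats and 5.95, 5.58, 8.73, 6.87 and 9.64 in the controls. The highest control came close to the lowest restricted rat without reaching it, and the log2 difference was 3.24 ± 0.70 (adjusted p = 0.0144). The ubiquitin protease *Usp2* and the cell cycle kinase *Wee1* differed by 2.34 ± 0.45 and 1.40 ± 0.19 (log2, adjusted p = 0.00773 and 0.000916). *Nfil3*, which opposes *Dbp* at D-boxes, differed by 0.06 ± 0.23 (log2, adjusted p = 0.931), and *Tsku*, a secreted protein, by 1.61 ± 0.61 (adjusted p = 0.137) with overlapping rats.

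**Figure D2:**
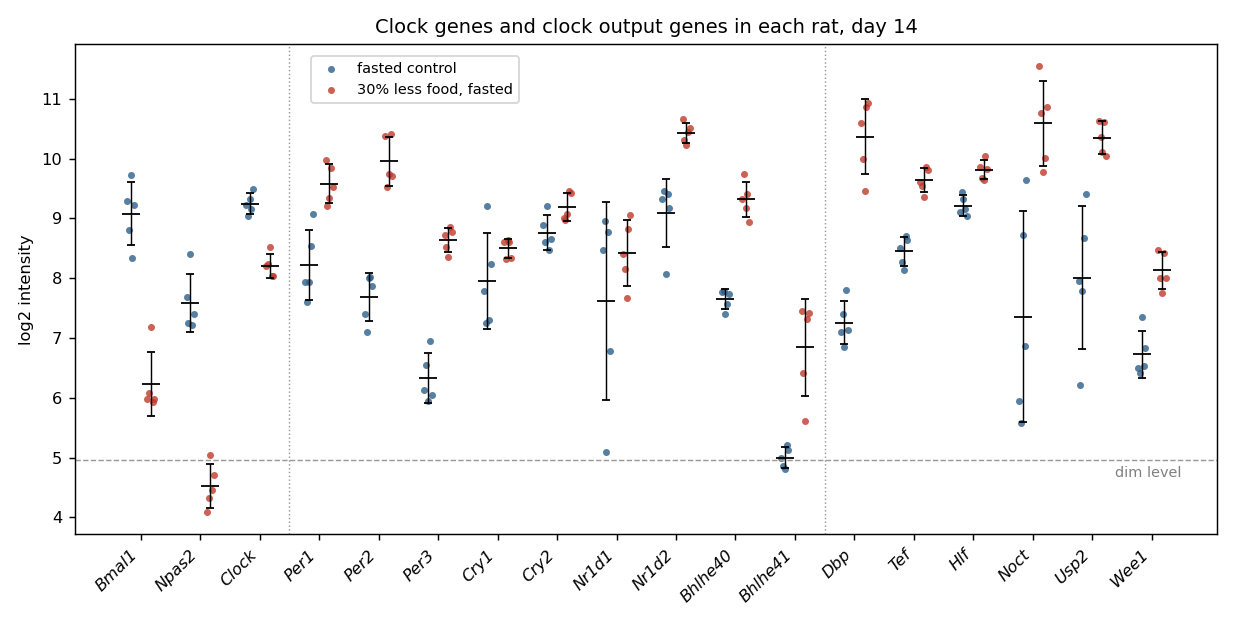
Log2 intensity (vertical axis) of 18 clock genes in each of 5 fasted controls (blue) and 5 30% restricted rats (red) at day 14, with black bars for mean ± SD. Dotted lines separate activators, repressors and output genes, the dashed line is the dim level, and the activators *Bmal1*, *Npas2* and *Clock* lie lower in every restricted rat while *Per2*, *Per3* and *Dbp* lie higher.

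Promoters of the genes that moved were read from RefSeq (build GRCr8), from 250 bases before to 50 bases after the start of each gene, and searched on both strands. The E-box CACGTG, which BMAL1 and its partners and the BHLHE40 and BHLHE41 proteins bind, occurs in 6.65% of 27457 such promoters, and the D-box TTATGTAA or TTATGCAA in 1.64%. Among the 7 clock genes that rose and have a promoter in that table, 2 hold the E-box (*Bhlhe40* and *Bhlhe41*) and 1 holds the D-box (*Per2*), and among 4 output genes that rose 1 holds the E-box (*Tef*). None of the promoters of *Bmal1*, *Clock* and *Npas2* holds either in this window. The cAMP element TGACGTCA, in 1.91% of all promoters, was in none of these clock and output promoters. The promoters of 3 of the genes that rose are shown with these motifs in capitals.
Bhlhe41 (chr4:180569306-180569605, minus strand): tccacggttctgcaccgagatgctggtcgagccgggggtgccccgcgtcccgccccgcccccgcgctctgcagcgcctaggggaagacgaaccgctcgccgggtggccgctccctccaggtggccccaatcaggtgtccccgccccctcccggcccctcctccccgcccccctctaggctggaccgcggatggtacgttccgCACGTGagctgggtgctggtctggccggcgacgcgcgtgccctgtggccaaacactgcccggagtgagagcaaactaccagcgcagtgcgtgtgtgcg
Tef (chr7:115206577-115206876, plus strand): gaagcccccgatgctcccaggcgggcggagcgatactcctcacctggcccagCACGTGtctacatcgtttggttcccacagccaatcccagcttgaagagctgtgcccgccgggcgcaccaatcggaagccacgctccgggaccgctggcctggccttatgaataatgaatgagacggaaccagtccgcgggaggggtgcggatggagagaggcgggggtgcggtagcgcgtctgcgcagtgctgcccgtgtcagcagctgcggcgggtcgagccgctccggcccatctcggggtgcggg
Per2 (chr9:99496944-99497243, minus strand): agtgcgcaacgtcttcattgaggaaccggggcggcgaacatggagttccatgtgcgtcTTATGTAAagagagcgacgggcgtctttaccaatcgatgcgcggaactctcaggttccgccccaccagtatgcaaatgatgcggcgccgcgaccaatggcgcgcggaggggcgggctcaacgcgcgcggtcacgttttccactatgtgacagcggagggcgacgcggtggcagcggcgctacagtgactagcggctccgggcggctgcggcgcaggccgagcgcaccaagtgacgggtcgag

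Cholesterol synthesis rose as a group. Of 17 measured enzymes of the pathway, 13 were higher and none lower, against 6.52% and 6.24% of all genes, with a median log2 difference of 0.89. *Idi1*, which isomerizes isopentenyl diphosphate, had the largest difference. Its log2 intensities were 8.27, 10.68, 10.64, 9.51 and 10.17 in the restricted rats and 7.95, 7.63, 8.60, 7.25 and 6.97 in the controls. Restricted rat 1 fell within the control range and the other 4 lay above it, and the log2 difference was 2.17 ± 0.44 (SE, adjusted p = 0.00995). The same rat was the lowest of its group for *Sqle*, squalene epoxidase, at 8.04 against 9.13 to 10.43 in the other restricted rats and 6.93 to 8.32 in the controls, in log2 intensity. For *Sqle* the log2 difference was 1.95 ± 0.40 (adjusted p = 0.0113), and for the C4-methylsterol oxidase *Msmo1* it was 1.86 ± 0.38 (adjusted p = 0.0106).

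Without overlap of the rats, *Cyp51* (lanosterol demethylase) differed by 1.71 ± 0.28 and *Fdps* (farnesyl diphosphate synthase) by 1.57 ± 0.22 on the log2 scale (adjusted p = 0.00304 and 0.00136). For *Fdps* the restricted rats were at 11.48, 12.79, 12.72, 12.12 and 12.38 and the controls at 10.80, 10.68, 11.16, 10.49 and 10.51 in log2 intensity. Again restricted rat 1 was nearest to the controls. *Hsd17b7*, a keto reductase of this pathway, and *Acat2*, the cytosolic thiolase that starts it, differed by 1.44 ± 0.20 and 1.42 ± 0.27 (log2, adjusted p = 0.00136 and 0.00756). The remaining enzymes called higher were *Fdft1*, *Pmvk*, *Lss*, *Ebp*, *Mvk* and *Mvd*, at log2 differences of 0.69 to 1.18 (*Mvk* at 0.39 with the mean of its probe sets, *Lss* at 1.35 in another probe set), and the cyclase *Lss* did not pass the test without restricted rat 4 (adjusted p = 0.104). *Dhcr7* and *Nsdhl*, which act late in the pathway, differed by 0.54 ± 0.29 and 0.29 ± 0.14 (log2, adjusted p = 0.321 and 0.275).

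The CCAAT box, to which NF-Y binds beside SREBP in many sterol genes, occurs on either strand in 37.7% of all promoters and in 8 of the 10 promoters found for the 13 cholesterol genes that rose. The sterol element TCACNCCAC occurs in 1.13% of all promoters and in none of these 10 within the window. The promoters of the isomerase and the synthase are shown with CCAAT, or its complement ATTGG, in capitals.
Idi1 (chr17:66547475-66547774, minus strand): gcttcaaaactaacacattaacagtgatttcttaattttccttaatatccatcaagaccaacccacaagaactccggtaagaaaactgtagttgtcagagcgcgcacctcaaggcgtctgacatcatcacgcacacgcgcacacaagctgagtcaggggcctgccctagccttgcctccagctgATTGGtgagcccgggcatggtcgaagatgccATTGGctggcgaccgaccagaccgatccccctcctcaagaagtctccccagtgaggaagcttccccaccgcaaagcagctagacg
Fdps (chr2:176804767-176805066, minus strand): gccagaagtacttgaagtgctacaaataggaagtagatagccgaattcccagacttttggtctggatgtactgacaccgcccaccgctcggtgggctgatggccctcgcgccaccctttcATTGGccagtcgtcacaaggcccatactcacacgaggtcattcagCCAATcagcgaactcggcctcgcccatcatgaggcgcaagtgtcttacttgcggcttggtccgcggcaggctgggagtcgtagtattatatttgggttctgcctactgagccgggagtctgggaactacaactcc

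Regulators of sterol balance moved in both directions. Of 12 measured genes of sterol sensing, uptake and export, 3 were higher (*Insig1*, *Stard4* and *Srebf2*) and 3 lower (*Insig2*, *Lpl* and *Scarb1*). Of all genes 6.52% were higher and 6.24% lower. *Insig1* and *Insig2* both hold SREBP in the endoplasmic reticulum. The log2 intensities of *Insig1* were 12.12, 12.58, 12.35, 11.20 and 11.58 in the restricted rats and 10.66, 9.36, 10.36, 10.36 and 10.88 in the controls, and those of *Insig2* were 10.51, 11.11, 11.86, 10.73 and 10.93 against 12.80, 12.48, 13.16, 12.40 and 12.54. The pair moved in opposite directions without overlap, *Insig1* by 1.64 ± 0.30 and *Insig2* by -1.65 ± 0.22 (log2, adjusted p = 0.006 and 0.00113). *Srebf2*, the sterol regulator itself, differed by 0.58 ± 0.11 (log2, adjusted p = 0.00719), and by 0.31 with the mean of its probe sets. In bile acid synthesis, *Cyp7a1*, the rate-limiting enzyme, was higher by 1.73 ± 0.34 and *Cyp8b1*, which directs the pathway to cholic acid, was lower by -1.37 ± 0.31 (log2, adjusted p = 0.009 and 0.0195). For *Cyp8b1* the 5 controls lay between 13.36 and 13.43 and the restricted rats between 10.77 and 12.98 in log2 intensity. Of 14 measured genes of bile acid synthesis and transport, 4 were higher and 2 lower, against the same shares of all genes.

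Fatty acid synthesis rose too. Of 15 measured genes, 10 were higher and none lower, against 6.52% and 6.24% of all genes, with a median log2 difference of 0.75. *Fasn*, fatty acid synthase, had log2 intensities of 8.72, 9.59, 10.02, 10.22 and 9.97 in the restricted rats and 8.46, 8.17, 8.33, 7.99 and 8.10 in the controls. Restricted rat 1 was again the lowest of its group, and the log2 difference was 1.49 ± 0.23 (adjusted p = 0.00257). *Acss2* and *Acly*, which make acetyl-CoA from acetate and citrate, differed by 1.71 ± 0.32 and 1.29 ± 0.21, and the carboxylases *Acaca* and *Acacb* by 0.98 ± 0.18 and 0.75 ± 0.12 (log2, adjusted p = 0.0072, 0.00303, 0.00621 and 0.0027). *Thrsp*, a lipogenic protein induced by thyroid hormone, differed by 2.08 ± 0.22 and the liver pyruvate kinase *Pklr* by 1.17 ± 0.20 (log2, adjusted p = 0.000163 and 0.00382). The regulators of the pathway did not differ in the same way: *Srebf1* was at a log2 difference of 0.16 ± 0.22 and *Mlxipl* (ChREBP) at 0.08 ± 0.11 (adjusted p = 0.763 and 0.768). For *Srebf1* restricted rats 4 and 5 lay above every control, whereas the other 3 were at 9.90 to 10.11 in log2 intensity beside controls at 9.99 to 10.60.

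Desaturases and elongases did not move as one. Of 13 measured genes, 4 were higher and 1 lower, against 6.52% and 6.24% of all genes. The 4 include *Scd*, given above, which is also counted in the list of fatty acid synthesis. The delta-5 desaturase *Fads1* differed by 1.61 ± 0.20, the delta-6 desaturase *Fads2* by 0.73 ± 0.20 and the elongase *Elovl6* by 0.72 ± 0.18, whereas the elongase *Elovl5* differed by -0.93 ± 0.15 (log2, adjusted p = 0.000544, 0.0431, 0.0259 and 0.00291). *Fabp5*, a fatty acid binding protein, was higher by 1.47 ± 0.22 (log2, adjusted p = 0.00188).

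**Figure D3:**
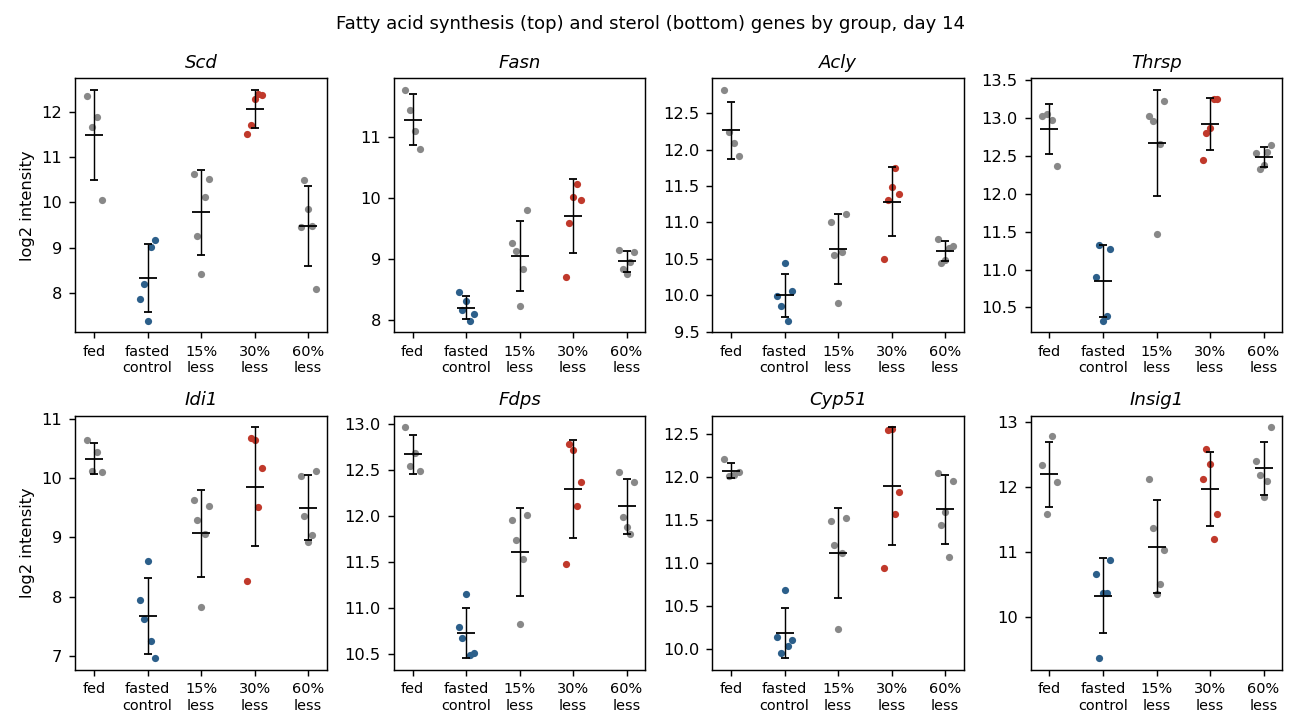
Log2 intensity (vertical axes) of 4 genes of fatty acid synthesis (top) and 4 sterol genes (bottom) in each rat of the 5 groups at day 14, with black bars for mean ± SD. The 30% restricted rats (red) lie above the fasted controls (blue) in all 8 genes except restricted rat 1 in *Idi1*, and for *Scd* they also lie above the rats on 15% and 60% less food.

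Triglyceride synthesis split. Of 12 measured genes, 2 were higher and 3 lower, against 6.52% and 6.24% of all genes, with a median log2 difference of -0.01. Both genes that rose were lipins, which make diacylglycerol from phosphatidate and also act in the nucleus. *Lpin2* was at log2 intensities of 10.57, 10.42, 10.28, 10.70 and 10.35 in the restricted rats and 8.74, 8.24, 8.46, 8.66 and 8.24 in the controls, and *Lpin1* at 11.99, 12.00, 11.66, 11.74 and 10.52 against 9.83, 9.43, 9.13, 10.34 and 10.14. Neither overlapped, though restricted rat 5 came near the controls for *Lpin1*. The log2 differences were 2.00 ± 0.12 for *Lpin2* and 1.81 ± 0.29 for *Lpin1* (adjusted p = 5.56e-06 and 0.00302), and with the mean of its probe sets *Lpin2* was at 1.28. The acyltransferases of the earlier steps fell, *Gpam* by -1.38 ± 0.22 and *Agpat2* by -0.82 ± 0.13 (log2, adjusted p = 0.00276 and 0.00262), together with *Agpat3* (-0.61, and -0.30 with the mean of its probe sets). *Dgat2*, of the last step, was at a log2 difference of 0.00 ± 0.08, with a 95% interval from -0.18 to 0.18. Of 16 genes of lipid droplets and lipases, 4 were lower and 2 higher, against the same shares of all genes. The droplet coats *Plin2* and *Plin5* differed by -1.24 ± 0.32 and -0.78 ± 0.17 (log2, adjusted p = 0.0313 and 0.0135).

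Mitochondrial fatty acid oxidation fell by small steps. Of 19 measured genes, 12 were lower and 1 higher, against 6.24% and 6.52% of all genes, with a median log2 difference of -0.33. *Eci1*, an enoyl-CoA isomerase, and *Etfdh*, which passes electrons from the pathway to ubiquinone, differed by -0.95 ± 0.16 and -0.76 ± 0.07 on the log2 scale (adjusted p = 0.0037 and 9.29e-05). The trifunctional protein subunits *Hadha* and *Hadhb* lay without overlap under the controls. *Hadha* was at log2 intensities of 11.90, 11.79, 11.86, 11.77 and 11.71 in the restricted rats and 12.22, 12.26, 12.30, 12.28 and 12.32 in the controls. Within each group the rats differed by less than 0.2, and the log2 difference was -0.47 ± 0.06 (adjusted p = 0.000561). With the mean of all probe sets of a gene in place of the brightest, the log2 differences of *Hadha* and *Eci1* were -0.19 and -0.49, both still called. *Cpt1a*, which controls entry of fatty acids into mitochondria, did not follow: its log2 difference was -0.02 ± 0.07 (adjusted p = 0.936), with a 95% interval from -0.18 to 0.14. The 1 gene called higher, the hydratase *Echs1*, differed by 0.20 ± 0.06 (log2, adjusted p = 0.0685) and was not called in 7 of the 10 fits that left out 1 rat (controls 2, 4 and 5, restricted rats 1, 3, 4 and 5), where the adjusted p reached 0.146.

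In peroxisomes, 4 of 11 measured genes were lower and none higher, against 6.24% and 6.52% of all genes. *Crot*, carnitine octanoyltransferase, which hands shortened fatty acids on to mitochondria, had the largest difference. It was at log2 intensities of 10.35, 10.55, 10.70, 9.55 and 10.81 in the restricted rats and 12.16, 12.42, 12.68, 12.74 and 12.36 in the controls. No rat of either group came within 1 of the other group on this scale, and the log2 difference was -2.08 ± 0.21 (adjusted p = 0.000142). Of 5 measured genes of ketone body synthesis and its control, 4 were lower and 1, the receptor *Ppara*, was higher. The carrier *Slc16a1* (MCT1) differed by -1.63 ± 0.16, the thiolase *Acat1* by -0.44 ± 0.06 and the dehydrogenase *Bdh1* by -0.49 ± 0.12 (log2, adjusted p = 0.000119, 0.00143 and 0.0294). With the mean of its probe sets *Slc16a1* was at -0.91, and another probe set of *Acat1* was at -0.66. *Fgf21*, a fasting hormone, was lower by -0.89 ± 0.25 (log2, adjusted p = 0.048), and was not called without restricted rat 1 (adjusted p = 0.113).

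PPAR alpha is the receptor that turns these genes on during a fast. Of 18 measured targets, 5 were lower and 1 was higher, against 6.24% and 6.52% of all genes, with a median log2 difference of -0.32. *Vnn1* (pantetheinase) and *Cyp4a1* (a fatty acid hydroxylase) differed by -1.71 ± 0.22 and -0.95 ± 0.21 (log2, adjusted p = 0.000669 and 0.0178). The 1 list member that was higher was the receptor *Ppara* itself, at 8.18, 7.93, 8.03, 7.81 and 7.61 in the restricted rats and 7.31, 7.04, 6.51, 7.51 and 7.85 in the controls, in log2 intensity. Control 5 lay within the restricted range. The log2 difference was 0.67 ± 0.21 (adjusted p = 0.0717), and it was not called in 6 of the 10 fits that left out 1 rat (restricted rats 1, 2, 3 and 4, controls 1 and 2), where the adjusted p reached 0.153. *Pdk4*, another target, which blocks pyruvate dehydrogenase, differed by -0.34 ± 0.39 (log2, adjusted p = 0.705).

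**Figure D4:**
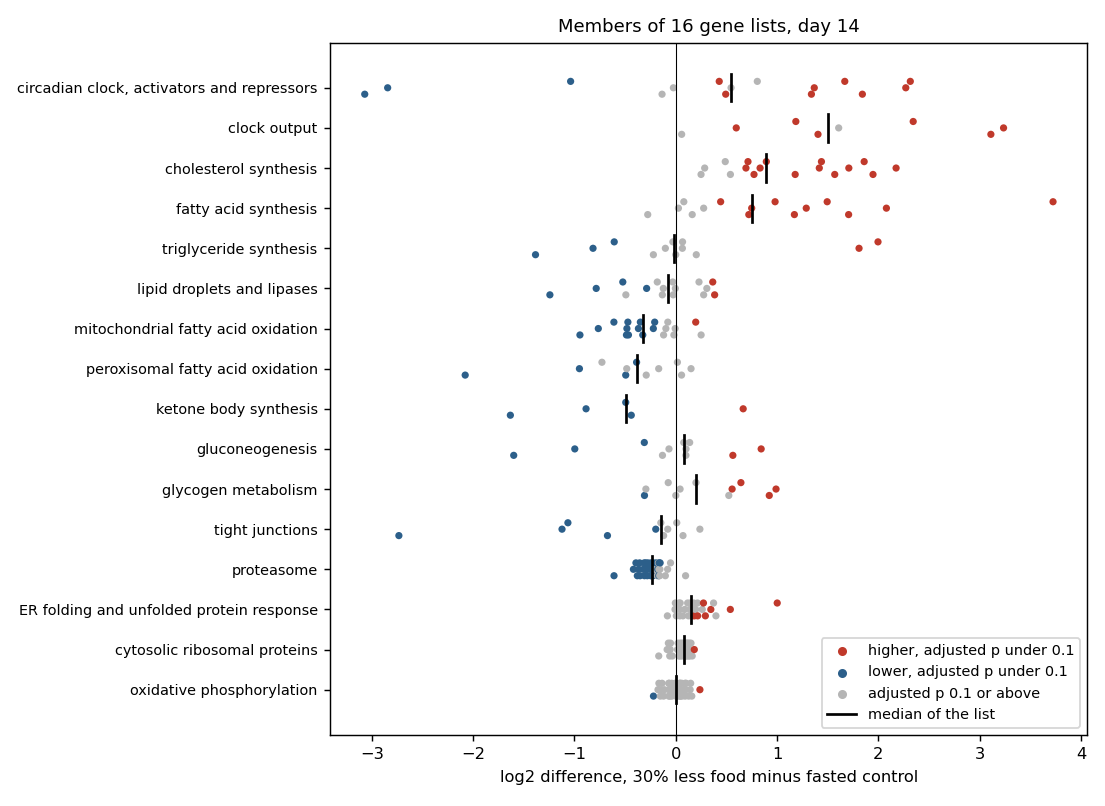
Log2 difference between the 30% restricted rats and the fasted controls (horizontal axis) of each measured member of 16 gene lists, with red and blue points for members called higher or lower and a black line for the median of each list. The medians are 0.89 in cholesterol synthesis and 0.75 in fatty acid synthesis, and -0.33 in mitochondrial fatty acid oxidation and -0.24 in the proteasome, while ribosomal and oxidative phosphorylation genes cluster around 0.

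Genes of glucose use and output moved one by one. Of 17 measured genes of glycolysis, 4 were higher and 1 lower, and of 11 of gluconeogenesis 2 were higher and 3 lower. Of all genes 6.52% were higher and 6.24% lower, so the fall in glycolysis was near that share. The glucose transporter *Slc2a2* (GLUT2) was at log2 intensities of 12.88, 12.72, 12.78, 12.89 and 12.79 in the restricted rats and 11.61, 11.22, 11.93, 11.77 and 11.84 in the controls. Restricted rats were alike and all above the controls, and the log2 difference was 1.14 ± 0.12 (adjusted p = 0.000149). *Gckr*, the protein that holds glucokinase in the nucleus, went the other way, at 8.76, 9.32, 9.68, 9.60 and 10.10 in the restricted rats and 11.31, 11.17, 11.43, 11.33 and 11.32 in the controls. The controls were within 0.3 of each other in log2 intensity, and the log2 difference was -1.82 ± 0.19 (adjusted p = 0.000155). *Gk*, glycerol kinase, which turns glycerol from fat into a substrate for glucose, was lower by -1.60 ± 0.15 (log2, adjusted p = 0.000103). *Ldha*, lactate dehydrogenase, was at a mean log2 intensity of 12.79 ± 0.15 in the restricted rats and 13.78 ± 0.06 in the controls (SD, n = 5, adjusted p = 3.31e-05). *Pck1*, the rate-limiting enzyme of gluconeogenesis, differed by 0.14 ± 0.06 (log2, adjusted p = 0.166). *Ppargc1a*, a coactivator of gluconeogenesis, differed by 0.84 ± 0.26 (log2, adjusted p = 0.0692), and was not called in 4 of the 10 fits that left out 1 rat (restricted rats 1 and 3, controls 2 and 3), with an adjusted p of up to 0.147.

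The glycolytic isomerase *Gpi* and the fructose 2,6-bisphosphate enzyme *Pfkfb1* were higher by 0.67 ± 0.11 and 0.86 ± 0.22, and the glucose 6-phosphate transporter *Slc37a4* by 0.56 ± 0.09 (log2, adjusted p = 0.0027, 0.0306 and 0.00288). Glycogen genes were mostly higher where called: of 11 measured, 4 were higher and 1 lower, against 6.52% and 6.24% of all genes. *Ugp2*, which makes UDP-glucose, the glycogen tether *Stbd1* and the branching enzyme *Gbe1* differed by 0.92 ± 0.13, 0.99 ± 0.20 and 0.64 ± 0.09 (log2, adjusted p = 0.00136, 0.00908 and 0.00141), each without overlap. Of 9 pentose phosphate genes 3 were higher and 1 lower, against the same shares. *Tkt* (transketolase) and *Pgd*, a source of NADPH for fatty acid synthesis, differed by 0.68 ± 0.09 and 0.62 ± 0.12 (log2, adjusted p = 0.000634 and 0.00844). Of 25 genes of pyruvate dehydrogenase control and the TCA cycle, 3 were higher and 1 lower, led by the kinase *Pdk1* at a log2 difference of 0.62 ± 0.09 (adjusted p = 0.00131).

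Amino acid genes moved little as lists, and single members moved far. Of 25 genes of amino acid degradation, 3 were higher and 4 lower, and of 19 of branched-chain breakdown 2 were higher and 1 lower. Of all genes 6.52% were higher and 6.24% lower. *Agxt*, which turns glyoxylate into glycine, was at log2 intensities of 10.42, 10.36, 10.39, 10.48 and 11.18 in the restricted rats and 12.05, 11.72, 12.05, 11.67 and 12.00 in the controls. Restricted rat 5 stood apart from its group but under all controls, and the log2 difference was -1.33 ± 0.15 (adjusted p = 0.000324). *Tat*, tyrosine aminotransferase, a glucocorticoid target, was higher by 1.01 ± 0.22, and *Gldc*, of glycine cleavage, lower by -0.82 ± 0.16 (log2, adjusted p = 0.0138 and 0.00765). *Sds* and *Got1*, which feed amino acid carbon to gluconeogenesis, differed by 0.96 ± 0.34 and 0.65 ± 0.28 (log2, adjusted p = 0.115 and 0.186) with overlapping rats. In the urea cycle, 1 of 9 genes was higher, *Otc*, by 0.42 ± 0.07 (log2, adjusted p = 0.00352), and 1 was lower, *Nags*. Of 24 genes of methionine and one-carbon metabolism, 6 were higher and 2 lower, the latter being *Cth* and *Bhmt* at log2 differences of -0.90 ± 0.13 and -0.82 ± 0.20 (adjusted p = 0.00186 and 0.0246), which make cysteine and remethylate homocysteine.

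Of 15 amino acid transporters, 2 were higher and 3 lower, against 6.52% and 6.24% of all genes. *Slc1a4*, which carries alanine, serine and cysteine, was at log2 intensities of 5.32, 5.70, 5.93, 5.43 and 5.52 in the restricted rats and 8.03, 8.39, 7.62, 7.10 and 7.43 in the controls. Every restricted rat was more than 1 under every control, and the log2 difference was -2.13 ± 0.21 (adjusted p = 0.000119).

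Tryptophan breakdown and NAD synthesis share members of 1 route, in which *Kynu* cleaves kynurenines. Its log2 intensities were 9.79, 10.39, 10.77, 9.92 and 10.87 in the restricted rats and 12.63, 12.52, 12.51, 12.44 and 12.46 in the controls. The controls were nearly equal and the restricted rats spread over more than 1 unit below them, with a log2 difference of -2.17 ± 0.19 (adjusted p = 6.05e-05). In the same list of 11 measured genes, 3 were higher and 2 lower, and *Afmid*, the formamidase before *Kynu*, was higher by 0.89 ± 0.15 (log2, adjusted p = 0.00367). *Nampt*, the rate-limiting enzyme of NAD salvage and a clock-controlled gene, was at 11.47, 11.39, 10.98, 11.67 and 11.38 in the restricted rats and 9.53, 10.53, 8.71, 9.46 and 9.94 in the controls, in log2 intensity. No control reached the restricted rats, and the log2 difference was 1.74 ± 0.27 (adjusted p = 0.00223). *Nmrk1*, which makes NAD precursors from nicotinamide riboside, was higher by 1.42 ± 0.17 (log2, adjusted p = 0.000469). Of 15 genes of sirtuins and NAD synthesis, 3 were higher and 1 lower. Both lists stand beside 6.52% higher and 6.24% lower over all genes.

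In the growth hormone axis, 2 of 12 measured genes were lower and none higher, against 6.24% and 6.52% of all genes. *Socs2*, a target and inhibitor of growth hormone signalling, and *Stat5b*, its transcription factor, differed by -1.08 ± 0.23 and -1.01 ± 0.13 (log2, adjusted p = 0.0145 and 0.000635). *Socs2* was not called in 1 fit of all groups and days (adjusted p = 0.169). *Stat5b* was at 7.04 to 7.30 in the restricted rats and 7.83 to 8.67 in the controls in log2 intensity, without overlap. *Igf1*, the main growth factor made under this hormone, differed by 0.09 ± 0.08 (log2, adjusted p = 0.552), with a 95% interval from -0.07 to 0.26. Growth hormone also sets the sex difference of rat liver. Of 11 measured male-biased genes 4 were lower and 1, *Hsd17b2*, was higher, and of 10 female-biased genes 2 were higher and none lower.

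The female-biased genes called higher were the prolactin receptor *Prlr* and the repressor *Cux2*, and the count was 1 to 3 with 1 rat left out. *Prlr* was at log2 intensities of 8.73, 10.47, 11.17, 9.94 and 9.82 in the restricted rats and 9.05, 6.94, 7.06, 9.54 and 8.42 in the controls. The groups overlapped, with restricted rat 1 under controls 1 and 4, and the log2 difference of 1.82 ± 0.54 (adjusted p = 0.0593) was not called in 5 of the 10 fits that left out 1 rat (restricted rats 2, 3 and 4, controls 2 and 3), where the adjusted p reached 0.129. *Cux2* was at 5.88, 6.92, 7.69, 6.15 and 6.17 in the restricted rats and 5.04, 5.32, 4.81, 5.29 and 5.61 in the controls, in log2 intensity. Its groups did not overlap, and the log2 difference was 1.35 ± 0.30 (adjusted p = 0.0158). Restricted rats 2 and 3 were the 2 highest for both genes and for *Trim24*, at a log2 difference of 1.19 ± 0.44 (adjusted p = 0.129). *Cyp2c11*, the classical male-specific P450, differed by 0.16 ± 0.07 and *Cyp2c12*, its female-specific counterpart, by 0.35 ± 0.44 (log2, adjusted p = 0.18 and 0.736). The odorant-binding protein *Obp3*, a male-biased secreted protein, was lower by -0.88 ± 0.17 (log2, adjusted p = 0.00918).

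Of 21 measured glucocorticoid response genes, 6 were higher and 1 lower, and the former included *Cyp7a1*, *Per1* and *Tat*, which other lists hold too. *Klf15*, a factor of the fasting response, was higher by 0.91 ± 0.15 and the receptor *Nr3c1* by 0.58 ± 0.10, and the cell cycle inhibitor *Cdkn1a* was lower by -1.43 ± 0.32 (log2, adjusted p = 0.00316, 0.00397 and 0.0165). Of 19 insulin and FoxO response genes 2 were higher and 1 lower, near the 6.52% and 6.24% of all genes, and of 21 of AMPK and mTOR signalling 5 were higher and 1 lower.

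Among 20 secreted hepatokines, 4 were lower and none higher, against 6.24% and 6.52% of all genes. *Inhba*, the subunit of activin A, was at log2 intensities of 5.73, 4.91, 6.97, 7.15 and 5.32 in the restricted rats and 7.95, 8.63, 8.99, 7.46 and 7.97 in the controls. Restricted rat 4 came within 0.4 of control 4, the groups did not overlap, and the log2 difference was -2.19 ± 0.43 (adjusted p = 0.00887), with another probe set at -0.83. *Inhbc*, another liver activin subunit, was lower by -1.06 ± 0.19 (log2, adjusted p = 0.00538), while *Inhbe* differed by -0.11 ± 0.26 (adjusted p = 0.882). Tight junction genes fell where they were called, 5 of 11 measured with none higher. *Cldn1*, a sealing claudin, was at 7.34, 7.19, 8.77, 7.29 and 6.83 in the restricted rats and 10.12, 9.68, 10.43, 10.29 and 10.56 in the controls, in log2 intensity. Restricted rat 3 was the nearest to the controls, as for *Bmal1*, and the log2 difference was -2.73 ± 0.30 (adjusted p = 0.000252). *Cldn2*, which forms cation pores, and the scaffold *Tjp3* differed by -1.12 ± 0.15 and -1.06 ± 0.16 (log2, adjusted p = 0.00116 and 0.0023).

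Proteasome genes fell by small amounts where they were called. Of 37 measured genes of the proteasome, its assembly and its control, 27 were lower and none higher, against 6.24% of all genes called lower. The median log2 difference was -0.24. With 1 rat left out 19 to 26 were lower, and after quantile scaling 31. Subunits are encoded by separate genes and act in 1 complex. *Psmd14*, the deubiquitinase of the lid, was at log2 intensities of 9.31, 9.39, 9.28, 9.28 and 9.35 in the restricted rats and 9.81, 9.67, 9.82, 9.67 and 9.72 in the controls. The rats of each group were within 0.2 of each other, and the log2 difference was -0.42 ± 0.06 (adjusted p = 0.00125). *Psma1*, of the core ring, differed by -0.39 ± 0.07 and the assembly chaperone *Psmd9* by -0.61 ± 0.12 (log2, adjusted p = 0.00371 and 0.0104). *Nfe2l1*, the factor that induces proteasome genes, differed by 0.10 ± 0.09 (log2, adjusted p = 0.607).

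Of 30 genes of ER folding and the unfolded protein response, 7 were higher and none lower, against 6.52% and 6.24% of all genes. They were led by *Herpud1* and *Sdf2l1* at log2 differences of 1.00 ± 0.23 and 0.54 ± 0.08 (adjusted p = 0.02 and 0.00217). With 1 rat left out the count was 4 to 6 (4 without restricted rat 4 or 5), and it was 3 by the study's LNN-MV model and 11 in a robust fit. Of 17 cytosolic heat shock genes 5 were higher and 1 lower, with *Hspa1a* at 1.15 ± 0.32 (log2, adjusted p = 0.044). Targets of the integrated stress response went both ways, 5 higher and 2 lower of 19. *Nupr1*, a stress protein, was higher by 1.60 ± 0.25 and the factor *Cebpb* by 1.02 ± 0.24, and *Atf5*, which controls mitochondrial stress genes, was lower by -1.50 ± 0.17 (log2, adjusted p = 0.00239, 0.0236 and 0.00035). Of 16 NRF2 targets 5 were higher and none lower, among them the aldehyde reductase *Akr7a3* at 1.00 ± 0.16 and the glutathione synthesis subunit *Gclm* at 0.82 ± 0.14 (log2, adjusted p = 0.00253 and 0.00397).

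Of all genes 6.52% were called higher and 6.24% lower, and the counts below stand beside these shares. Lists of ribosomal proteins, oxidative phosphorylation, RNA processing and the cell cycle were near or under them. Of 35 measured cytosolic ribosomal proteins 1 was higher, of 41 genes of oxidative phosphorylation 1 was higher and 1 lower, of 25 of RNA processing and ribosome biogenesis 1 was higher, and of 29 of the cell cycle and DNA replication 2 were higher and 1 lower. Above these shares, 4 of 27 translation factors and tRNA synthetases were lower, and of 24 autophagy and lysosome genes 4 were higher and 2 lower. Of 18 P450 genes of drug metabolism 4 were higher, including their electron donor *Por* at a log2 difference of 1.35 ± 0.27 (adjusted p = 0.00999), and of 21 conjugating enzymes 2 were higher and 2 lower, including *Ugt2b1* at 1.24 ± 0.22 (log2, adjusted p = 0.00566). In iron and heme metabolism 2 of 18 were higher and 3 lower, and *Alas1*, which starts heme synthesis, was higher by 1.13 ± 0.24 (log2, adjusted p = 0.015). Of 22 interferon-stimulated genes 1 was higher and 3 lower, of 21 acute phase proteins 1 was lower, of 21 immediate early genes 2 were higher, of 12 activin genes 1 was higher and 2 lower, and of 28 nuclear receptors 5 were higher and 1 lower.

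Genes that the study names were read with the same test. Enzymes that are active in rats and lost in humans did not pass it: *Uox* (urate oxidase) differed by 0.18 ± 0.08, *Urah* by 0.11 ± 0.07, *Gulo*, of ascorbate synthesis, by -0.26 ± 0.14, *Ggta1* by -0.13 ± 0.10 and *Tdh* by 0.06 ± 0.09, the last near the dim level (log2, adjusted p from 0.216 to 0.8). Of the steroid enzymes, *Hsd17b2* and *Hsd17b7* were higher, as given above, and *Akr1c19* was lower by -0.86 ± 0.17 (log2, adjusted p = 0.0101). *Hsd11b1* and *Hsd17b8* differed by -0.03 ± 0.12 and 0.04 ± 0.06, and *Hsd17b1*, which is dim in both groups, by 0.00 ± 0.09 (log2, adjusted p from 0.817 to 0.989). In sugar metabolism, *Pgm1*, *Tpi1* and *Eno3* differed by 0.04 ± 0.07, 0.02 ± 0.07 and 0.26 ± 0.12 (log2, adjusted p = 0.817, 0.923 and 0.244). Other genes that the study names were called: *Tkt* and *Pklr* were higher and *Gk* and *Hadha* lower, as given above. Over the 19 measured genes of this kind, 4 were higher and 3 lower, against 6.52% and 6.24% of all genes. The rat enzymes came from a comparison of rat with human. The other genes were picked by the study from these samples and are not independent evidence of a direction.

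Markers of other cell types were read over whole lists, since whole liver holds them all. Of all genes 6.52% were called higher and 6.24% lower. None of 12 Kupffer cell and macrophage, 17 T and NK cell, 5 B cell and 11 endothelial markers was called in either direction. Of 17 stellate cell and fibroblast markers, 2 were higher (*Lrat* and *Col3a1*) and 3 lower (*Lox*, *Pdgfrb* and *Acta2*), and their summed intensity ranged from 5495 to 7547 in the restricted rats and from 5324 to 7980 in the controls. With the mean of its probe sets *Pdgfrb* was not called (log2 difference -0.13, adjusted p = 0.404). *Lox* was at log2 intensities of 6.09, 6.39, 7.00, 7.50 and 7.88 in the restricted rats and 8.56, 9.43, 10.38, 10.40 and 8.83 in the controls. Its log2 difference was -2.55 ± 0.42 (adjusted p = 0.00316), beyond that of any other marker of the list. Of 6 erythroid markers 2 were lower, *Hbb* (beta globin) at -0.85 ± 0.21 and *Alas2* at -0.96 ± 0.24 (log2, adjusted p = 0.0277 for both), and 4 were not called. All of them overlapped between the groups. The summed intensity of the list ranged from 4639 to 12462 in the restricted rats and from 9383 to 13345 in the controls. The part of red cells in the other results was not tested. The hepatocyte marker *Apoa1* was lower by -0.60 ± 0.08 (log2, adjusted p = 0.00134), 1 of 6 neutrophil markers was lower (*S100a9*, at -0.71 ± 0.19, adjusted p = 0.043 and 0.105 without restricted rat 4), and of 7 cholangiocyte markers 1 was higher and 1 lower. Of 10 adipocyte and pancreas markers 6 were dim in both groups, and the 1 called lower, *Cela1*, was at 9.19 to 9.57 in the restricted rats and 9.61 to 10.28 in the controls in log2 intensity.

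The other diets of day 14 show where 30% less food stands. These comparisons share rats with the one above, so each is given by its own values. Against the rats on 15% less food, limma in 1 fit of the 5 groups of day 14 called no gene in either direction (0% and 0%), with 1085 genes at an unadjusted p under 0.05. Each diet was also set against the fasted controls: *Bmal1* differed by -3.08 with 15% less, -2.84 with 30% less and -2.80 with 60% less food, and *Dbp* by 3.54, 3.11 and 3.51 in the same order, in log2. For *Scd* the log2 difference from these controls was 1.45 with 15% less food, 3.72 with 30% less and 1.14 with 60% less.

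Between 60% and 30% less food, 200 genes were higher (1.41%) and 381 lower (2.68%) in the rats with 60% less. The 5 largest falls from 30% to 60% less food were those of *Scd*, the neural regeneration protein *Nrep*, the organic anion transporter *Slc22a8*, the activin subunit *Inhbe* and *Lox*, at log2 differences of -2.58 ± 0.47, -1.83 ± 0.40, -1.75 ± 0.47, -1.73 ± 0.38 and -1.65 ± 0.39 (SE, adjusted p = 0.00667, 0.0254, 0.0578, 0.0254 and 0.0347). For *Lox* the rats with 60% less food were at 4.64 to 5.91 in log2 intensity, under all 30% restricted rats. The 5 largest rises were those of the IGF binding protein *Igfbp2*, the decarboxylase *Acmsd*, which diverts tryptophan from NAD, the sulfotransferase *Sult1c2*, the ER-phagy receptor *Retreg1* and *Ppargc1a*, at log2 differences of 1.64 ± 0.45, 1.21 ± 0.38, 1.07 ± 0.31, 1.03 ± 0.20 and 0.99 ± 0.30 (adjusted p = 0.0612, 0.0983, 0.0789, 0.00957 and 0.0873). Ribosomal proteins, of which 1 of 35 was called in the comparison with the controls, had 19 of 35 members higher with 60% than with 30% less food in the fit of the 5 groups. In a separate limma fit of the 2 groups none was called, with 28 at an unadjusted p under 0.05, and with 1 rat left out the count was 4 to 21 (4, 12 and 7 without rats 1, 2 and 5 of the 60% group, and 9, 7, 9 and 10 without restricted rats 2, 3, 4 and 5). Of the 15 genes of fatty acid synthesis 5 were lower with 60% less food (2 in the separate fit, 3 without rat 5 of the 60% group, 9 without restricted rat 1), and none of the 15 clock genes, 8 output genes or 17 cholesterol genes was called. These counts depended on single rats: without rat 5 of the 60% group 50 genes were higher and 83 lower, and without rat 3 of that group 430 were higher and 453 lower.

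**Figure D5:**
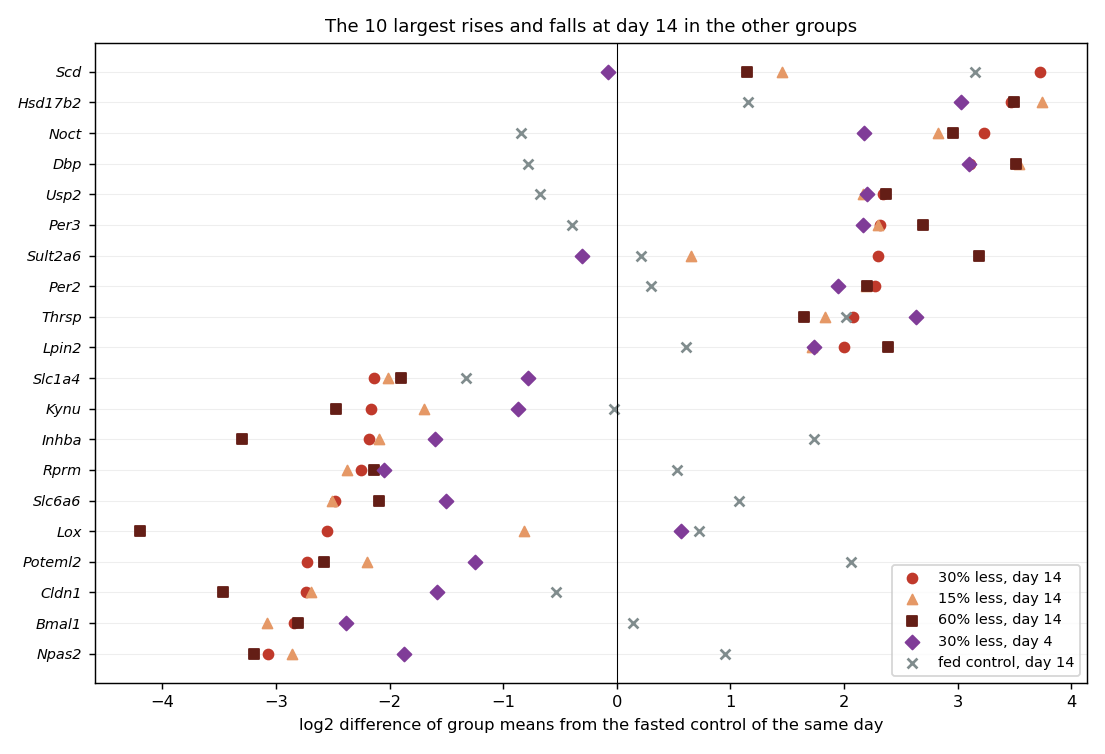
Log2 difference of group means from the fasted controls of the same day (horizontal axis) for the 10 genes with the largest rises and the 10 with the largest falls at day 14 with 30% less food, with 1 symbol for each diet or day. Most symbols of restricted groups lie on the same side of 0, with exceptions at day 4: *Scd* is at 3.72 with 30% less food, 1.14 with 60% less and -0.08 at day 4, *Sult2a6* is at -0.30 and *Lox* at 0.56.

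At day 4 the same diets were compared in other rats. The difference between the 30% restricted rats and the fasted controls changed from day 4 to day 14 in 19 genes by limma's interaction term, 7 with a higher (0.0492%) and 12 with a lower (0.0844%) difference at day 14. The 5 largest falls were those of *Lox*, the adhesion docking protein *Nedd9*, *Kynu*, *Gckr* and *Gk*, by -3.11, -1.41, -1.30, -1.26 and -1.18 on the log2 scale (adjusted p = 0.0802, 0.0802, 0.0802, 0.0802 and 0.0523). At day 4 *Lox* was at 7.73 to 9.98 in the restricted rats and 7.30 to 9.38 in the controls in log2 intensity, so the groups overlapped there. *Gk* was at 11.62 to 12.16 and 12.05 to 12.32 at that day, close together beside the separation of day 14. The 5 largest rises were those of *Ehhadh*, a peroxisomal enzyme of fatty acid oxidation, *Prelid2*, the microtubule binding protein *Mapre2*, the collagen prolyl hydroxylase *P4ha1* and *Slc35e4*, by 1.24, 1.08, 0.84, 0.77 and 0.55 (log2, adjusted p = 0.065, 0.0802, 0.065, 0.0802 and 0.0802). *Ehhadh* differed by -1.53 at day 4 and by -0.29 at day 14 (log2). Of the genes that led the comparison at day 14, *Scd* differed by -0.08 at day 4 in log2, where the interaction was 3.80 with an adjusted p of 0.14, and the controls of that day ran from 6.66 to 11.25 in log2 intensity. *Bmal1*, *Per2* and *Dbp* differed by -2.38, 1.95 and 3.10 at day 4 (log2), and none of the 3 passed the interaction test. No gene was left at an adjusted p under 0.05, and leaving out single rats gave between 0 and 34 genes with a higher and between 0 and 61 with a lower difference.

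The last comparison was with group 1, fed and by its labels not fasted. The study's methods also leave group 1 out of the overnight fast, although the series description has every animal fasted. Against group 1, 1745 genes were higher (12.3%) and 1789 lower (12.6%) in the 30% restricted rats. The 5 largest falls were *Poteml2*, *Npas2*, *Inhba*, *Slc6a6* and the tubulin *Tubb2a*, at log2 differences of -4.79, -4.02, -3.92, -3.56 and -3.38, and the 5 largest rises were *Noct*, *Dbp*, the zinc finger gene *Zfp354a*, *Usp2* and *Per3*, at 4.08, 3.89, 3.06, 3.02 and 2.71 (adjusted p from 4.02e-12 to 0.00367). The restricted means of *Poteml2* and *Npas2* were under the dim level, and with that level in their place the log2 differences from the fed rats were -4.45 and -3.59, so their exact sizes and ranks are not fixed. In the clock list 7 of 15 genes were higher and 3 lower than in fed rats. The lipid genes were placed otherwise. Of 17 cholesterol genes none was higher and 4 were lower than in fed rats, and of 15 genes of fatty acid synthesis none was higher and 9 were lower. *Scd* was at 10.05 to 12.34 in log2 intensity in the fed rats and at 11.50 to 12.40 in the 30% restricted rats, an overlapping pair at a log2 difference of 0.57 (adjusted p = 0.5), whereas *Fasn* was lower than in fed rats by -1.57 (log2, adjusted p = 0.000154). Of 19 genes of mitochondrial fatty acid oxidation 4 were higher and 2 lower than in fed rats, and *Cpt1a* was higher by 1.33 (log2, adjusted p = 8.94e-08).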

How the data were processed

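Liver RNA of each rat was hybridized to 1 Affymetrix rat genome array. The authors normalized the arrays with RMA (R 3.0.1 with affy 1.38.1 and Affymetrix Expression Console in the submitters' processing notes) and deposited intensities as whole numbers on a linear scale, from 8 to 33095, for 31042 probe sets on 49 arrays. The deposited intensities were turned into log2 here. Rounding to whole numbers makes steps of 0.046 on the log2 scale at the dim level, and RMA brings arrays to a common distribution, so a shift of all genes together cannot be seen.

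Probe sets with 1 gene symbol (20826 of 31042, with 436 holding several and 9780 none) were reduced to the brightest probe set for each of 14217 genes. The 5 restricted rats were compared with the 5 fasted controls in a fit of their own with limma (version 3.58.1, under R 4.3.3), with Benjamini-Hochberg adjustment over all genes at 0.1, the false discovery rate that the study set for its own model. Comparisons with the other diets used 1 fit of the 5 groups of day 14, and days were compared by an interaction term. That model is LNN-MV, a hierarchical one, which was rebuilt here as an alternative. The limma test was tried on simulated data with independent normal noise for each gene, so correlation between genes was not covered. It recovered 94% of changes of 1 and 77% of changes of 0.5 on the log2 scale. Of 191 calls, 20 were false.

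Groups came from the labels. In 1 restricted rat the title leaves out the tissue, which another label gives as liver. Rats are numbered in accession order, which pairs nothing. Gene lists (53 pathway and 10 marker lists, 985 of 1116 entries measured) are described by counts of called members and their median, and promoters came from RefSeq (build GRCr8). The members and lists were chosen with earlier results of these data known. Named genes are the 10 largest rises and falls without overlap, the members with the largest difference or a described role in each list, the genes the study names and, in the other comparisons, the 5 largest called rises and falls. Alternatives were other scalings, filters, probe set rules, thresholds, fits with weights or robust estimates, and leaving out each rat.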

Additional observations from a re-analysis of the deposited data

Results flagged for a closer look

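In the 30% restricted rats, 1 rat stood apart from the other 4 in these log2 intensities: *Agxt* (rat 5, 11.18), *Atf5* (rat 1, 10.53), *Bmal1* (rat 3, 7.19), *Cldn1* (rat 3, 8.775), *Elovl5* (rat 4, 12.36), *Fdft1* (rat 1, 10.34), *Lpin1* (rat 5, 10.52), *Mvd* (rat 1, 7.229), *Nedd9* (rat 5, 8.889), *P4ha1* (rat 3, 9.819), *Psmd9* (rat 5, 9.042), *Tsku* (rat 5, 10.41), *Tubb2a* (rat 3, 9.453) and *Ugp2* (rat 3, 12.97). For *Fdft1* and *Mvd*, both of cholesterol synthesis, the rat was the one that lay lowest for *Idi1* and *Sqle*. In the fasted controls, 1 rat stood apart for *Acat1* (rat 3, 12.28), *Cth* (rat 2, 12.63), *Cyp51* (rat 3, 10.69), *Gk* (rat 5, 11.68), *Hbb* (rat 1, 12.78), *Igfbp2* (rat 5, 9.799), *Nr1d2* (rat 3, 8.077), *Nr3c1* (rat 1, 9.137) and *Retreg1* (rat 3, 10.42). These were 23 of 374 gene and group pairs examined (6.15%), where chance alone marks about 1 in 20.

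The difference between restricted rats and controls changed from day 4 to day 14 by limma's interaction term, with adjusted p from 0.0523 to 0.0802, in 13 of the named genes. On the log2 scale this change was -3.113 for *Lox*, -1.406 for *Nedd9*, -1.296 for *Kynu*, -1.256 for *Gckr*, -1.182 for *Gk*, -0.915 for *Cela1* and -0.6138 for *Apoa1*. It was 1.236 for *Ehhadh*, 1.077 for *Prelid2*, 0.8352 for *Mapre2*, 0.7718 for *P4ha1*, 0.5459 for *Slc35e4* and 0.5194 for *Pdk1*.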

How the results depend on the processing

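Against the fasted controls, 656 to 907 genes were higher and 666 to 865 lower with 1 rat left out (10 fits), 610 and 585 at an adjusted p under 0.05, 239 and 201 with a fold of at least 1.5, and 680 and 636 by LNN-MV. Other scalings, filters and fits stayed within 1.5 times the reported counts, and no named gene that was called reversed (the uncalled *Cpt1a*, *Acmsd* and *Dgat2*, near 0, changed sign). Of 148 named genes that were called, 136 kept the call with every rat left out. Beside those given with their values above, *Col3a1* (7 of 10 fits, adjusted p up to 0.174), *Scarb1* (7, up to 0.17), *Sult1c2* (5, up to 0.121) and *Nags* (2, up to 0.106) lost it. With the other settings 8 named genes lost the call, among them *Socs2*, *Pdgfrb* and *Zfp354a* (adjusted p = 0.101 in a robust fit). LNN-MV did not call 4 of the named genes: *Col3a1*, *Cry2*, *Echs1* and *Scarb1*. Against 15% less food, leaving out 1 rat gave 0 to 1 genes higher and 0 to 10 lower (10 without restricted rat 5), and a separate fit gave 4 and 3. Between 60% and 30% less food the counts were 50 to 430 higher and 83 to 453 lower with 1 rat left out, 398 higher after quantile scaling, 13 and 39 in a separate fit, and 82 and 159 at an adjusted p under 0.05. Counts of higher genes moved by over 1.5 times without rat 1 (72), 3 (430) or 5 (50) of the 60% group or restricted rat 2 (124), 3 (83), 4 (75) or 5 (120), and those of lower genes without rat 1 (213) or 5 (83) of the 60% group or restricted rat 3 (185), 4 (119) or 5 (200). The change between days gave 0 to 34 and 0 to 61 genes with 1 rat left out, 19 lower with a filter on dim genes, 12 and 27 after quantile scaling, 13 and 22 in 1 fit of all groups, and 0 and 0 at an adjusted p under 0.05. It fell to 0 in both directions without day 4 control 2 or 4 or day 14 restricted rat 2 or 4. Against fed rats, leaving out 1 rat gave 1370 to 1783 higher and 1463 to 1778 lower. The causes were not tested. No paired analysis was possible because the replicate numbers follow accession order and the rats are different animals. Intensities near the array's floor limit what dim genes can show.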
